A study of Mus musculus with 4 samples.

Results

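The genes of DNA replication and of entry into S phase were examined in palmitate-treated C2C12 myoblasts: 50 genes chosen by their function, out of 19751 genes with a named probe on the arrays and 13666 with a tested one. All 50 were on the arrays and all 50 passed the filter on dim probes, with 58 of their 59 probes tested. C2C12 is a mouse line derived from satellite cells of thigh muscle. Proliferating cultures were kept for 48 h in 5% FBS/DMEM with palmitate at a final concentration of 0.1 mmol/l, or in the same medium with matching ethanol and fatty-acid-free albumin but no palmitate. One label of the control channel gives a different medium, written as 10%HS, and the difference between these labels was not settled. RNA from 4 control and 4 palmitate-treated cultures, labelled as biological replicates, was hybridized in pairs to 4 two-colour arrays on 1 slide, always with palmitate in cyanine-5 and control in cyanine-3, so that an effect of palmitate and an effect of the dye on a probe cannot be told apart. The cells are a single established line, and the RNA came from whole cultures, so a smaller share of cells in S phase and less of a transcript per cell cannot be told apart.

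Replication starts where the origin recognition complex loads, with Cdc6 and Cdt1, the ring of Mcm2 to Mcm7 that becomes the replicative helicase. Cdc45 and the GINS complex switch the helicase on, polymerase alpha with primase lays down primers, the clamp loader places the PCNA ring on the DNA, and the polymerases delta and epsilon copy it. Entry into this phase is governed by cyclins D and E with their kinases, which release E2F transcription factors from the retinoblastoma family. Many replication genes are E2F targets, and myoblasts must leave this cycle before they fuse into myotubes.

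The markers of the labelled cell type were present: 7 of 7 myoblast markers, Myod1, Myf5 and Des among them, were well above background in all 8 channels. Markers of other cell types were mixed. Of 6 adipocyte markers 4 were in no channel, Adipoq, Plin1, Lep and Cfd, while Fabp4 was in all 8 and Cidec in the 4 palmitate channels alone. The mean log2 ratio of Cidec, palmitate over control, was 0.042 ± 0.052 (SD, n = 4, adjusted p = 0.767 in limma). Of 4 endothelial markers Cdh5 and Tek were in none, and Pecam1 and Kdr in all 8. Of the blood cell markers reported here Cd3e and Itgam were in all 8, Ptprc was in some, and Cd68 had no named probe. Between 57.5% and 64.0% of all probes were well above background in the control channels, and between 61.9% and 70.7% in the palmitate channels. On each array the palmitate channel had the larger share. Replicate 1 stood apart from the other arrays, with correlations of 0.057, -0.16 and -0.16 with replicates 2, 3 and 4 over the 24055 tested probes, against 0.68 to 0.77 among replicates 2 to 4. For this reason the counts of the set past the adjusted p and at the unadjusted p are given with and without it.

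Letters of E2F sites were in the promoters of 55.3% of these genes and of 6.1% of all genes. RefSeq promoter windows (GRCm38.p6, 250 bases before to 50 after the start that defines a window) were matched by symbol to 38 of the 50 genes. Of these 32 had 1 window, 5 had 2 and 1 had 3. Searched on both strands, with overlaps kept, TTTGGCGC was in the windows of 6 of the 38 genes (15.8%) and of 158 of all 27025 genes with a window (0.585%). TTTCGCGC was in 7 (18.4%), against 0.374% of all, and GCGGGAA in 15 (39.5%), against 5.29%. At least 1 of these 3 E2F strings was in 21 of the 38 genes and in 1648 of all. The CCAAT box was in 23 (60.5%), against 41.1%. Of the letters of the cell cycle homology region, TTTGAA was in 5 (13.2%), against 20.2% of all, and TTCGAA in 2 (5.26%), against 1.8%. A match describes the letters in the window and is no measured binding site.

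The 250 bases before the start are printed here for 5 genes, chosen after their values were seen: Mcm5 and Mcm6 as subunits of 1 ring with E2F letters, Pola1 as a gene with such letters and a low ratio, and Pcna and Rpa1 as genes without them and with a low and a high ratio. Capitals mark matches to the 3 E2F strings and to CCAAT on either strand. Positions count from the start that defines each window, which is not always the outer end of the gene. The outer ends of Mcm5 (75109468), Pola1 (93632387) and Rpa1 (75348454) fall within the printed stretch. In these genes the bases nearest the start lie inside the gene, and in Pola1 all marked bases do.
Mcm5, chr8:75109259-75109508, plus strand: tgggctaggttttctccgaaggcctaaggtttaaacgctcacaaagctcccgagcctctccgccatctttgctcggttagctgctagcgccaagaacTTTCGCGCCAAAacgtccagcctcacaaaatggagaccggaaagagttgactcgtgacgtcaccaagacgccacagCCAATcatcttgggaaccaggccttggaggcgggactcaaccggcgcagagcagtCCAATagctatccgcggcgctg
Mcm6, chr1:128359706-128359955, minus strand: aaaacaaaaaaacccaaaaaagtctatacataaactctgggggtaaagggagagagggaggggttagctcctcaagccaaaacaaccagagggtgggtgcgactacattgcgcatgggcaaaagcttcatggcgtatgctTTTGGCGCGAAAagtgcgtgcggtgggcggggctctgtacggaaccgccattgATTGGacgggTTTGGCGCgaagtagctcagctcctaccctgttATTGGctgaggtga
Pola1, chrX:93632156-93632405, minus strand: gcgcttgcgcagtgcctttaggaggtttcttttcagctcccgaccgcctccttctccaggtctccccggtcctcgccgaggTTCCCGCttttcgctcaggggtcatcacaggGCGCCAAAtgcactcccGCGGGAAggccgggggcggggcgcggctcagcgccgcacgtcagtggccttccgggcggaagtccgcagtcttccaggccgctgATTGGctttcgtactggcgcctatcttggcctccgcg
Pcna, chr2:132253181-132253430, minus strand: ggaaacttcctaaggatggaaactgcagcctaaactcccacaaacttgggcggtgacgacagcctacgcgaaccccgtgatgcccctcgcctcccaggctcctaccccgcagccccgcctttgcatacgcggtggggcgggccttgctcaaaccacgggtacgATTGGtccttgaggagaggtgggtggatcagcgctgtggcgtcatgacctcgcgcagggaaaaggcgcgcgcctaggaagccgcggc
Rpa1, chr11:75348384-75348633, minus strand: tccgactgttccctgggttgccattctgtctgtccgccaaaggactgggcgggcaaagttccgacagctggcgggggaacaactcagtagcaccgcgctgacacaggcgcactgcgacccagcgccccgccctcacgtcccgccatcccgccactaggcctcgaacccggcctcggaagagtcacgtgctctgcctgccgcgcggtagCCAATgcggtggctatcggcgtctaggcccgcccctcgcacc

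In Mcm5 the strings TTTCGCGC and, on the other strand, TTTGGCGC overlap to form TTTCGCGCCAAA, 153 to 142 bases before the start. In Mcm6 the reverse complement of that run, TTTGGCGCGAAA, lies 110 to 99 bases before the start, and a separate TTTGGCGC follows at 47 to 40. This run of 12 bases, noticed after the windows were read, was in 4 of the 27025 genes with a window, 2 of which are Mcm5 and Mcm6. Pola1 holds GCGGGAA on both strands, at 169 to 163 and at 121 to 115, and TTTGGCGC on the other strand at 138 to 131. The windows of Pcna and Rpa1 hold a CCAAT box each in this stretch, at 87 to 83 in Pcna and at 42 to 38 in Rpa1, and none of the 3 E2F strings.

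After 48 h with palmitate the 50 genes did not move as a block. Values are log2 ratios of palmitate over control after loess normalization of the dyes, so that 1 is a doubling and 0 no difference. The median over the 50 genes was -0.062, beside 0.0016 for all 13666 tested genes. Of the 50 means 18 were above 0 and 32 below, beside 6864 above and 6802 below over all tested genes. This lean downwards turned with the normalization: when each array was shifted by 1 constant in place of loess (the constant shift below), 33 of the 50 stood above the median of all probes and 17 below it, with a median of 0.063. On single arrays the median was -0.064, -0.062, -0.0050 and 0.00065 in replicates 1 to 4, and 15, 24, 24 and 25 of the 50 genes were above 0. Of all 13666 tested genes 6429, 6894, 7139 and 6619 were above 0 on these arrays.

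No gene of the set passed an adjusted p of 0.05 in limma over the 4 arrays, and none of all 13666 did (0%); the lowest adjusted p of the set was 0.119, for Pcna. Run unpaired, the methods' t-test was applied to the loess-normalized signals of the probes tested here, which is not the study's own processing. It gave 0 of the 50 genes after adjustment, beside 0.0659% of all tested genes. Limma with array weights, which gave replicate 1 a weight of 0.42, called 7 (14%), beside 15.2% of all genes tested. In limma, at an unadjusted p under 0.05, 5 of the 50 genes were higher with palmitate, Mcm4, Gins4, Rpa1, Tyms and Cdk6, beside 10.8% of all tested genes. At the same p 7 were lower, Pcna, Cdt1, Tk1, Rfc5, Rfc2, Pola1 and Cdk4, beside 13.3% of all. Together these 12 are 24.0% of the set, beside 24.1% of all tested genes. With each array centred on its median in place of loess the counts were 3 higher and 0 lower, beside 2.87% and 0.139% of all tested genes, and with channels shifted to their 75th percentile 4 and 1, beside 4.9% and 4.94%. With a constant shift, relative to the median of all probes, the 5 higher genes stood between 0.40 and 0.69. The 7 lower genes stood at -0.35 for Cdt1, -0.24 for Pcna, -0.20 for Rfc2, -0.19 for Pola1, -0.16 for Rfc5, -0.083 for Tk1 and -0.0044 for Cdk4, so that each was nearer 0 than with loess.

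Counts by sign and by size were read in the same way. Above 0 on all 4 arrays were 5 of the 50 genes (Mcm4, Gins4, Prim2, Tyms and Cdk6), beside 15.7% of all tested genes, and below 0 on all 4 were 10, beside 16.8%. For such genes the exact two-sided sign-flip test over 4 arrays gives 0.13, the smallest p it can give. A mean fold of 1.6, the limit used in the study's methods, was reached by 1 gene, Cdk6, beside 2.45% of all. The 95% confidence interval of the mean lay within 1.6-fold in both directions for 46 of the 50 genes, beside 84.9% of all tested genes, and these intervals take in only the spread of the 4 arrays. In the normalized single-channel signals the 4 palmitate cultures were all above the 4 controls for Gins4 alone (5.38% of all genes) and all below for Pcna, Cdt1, Rfc5 and Tk1 (8.4% of all).

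**Figure D1:**
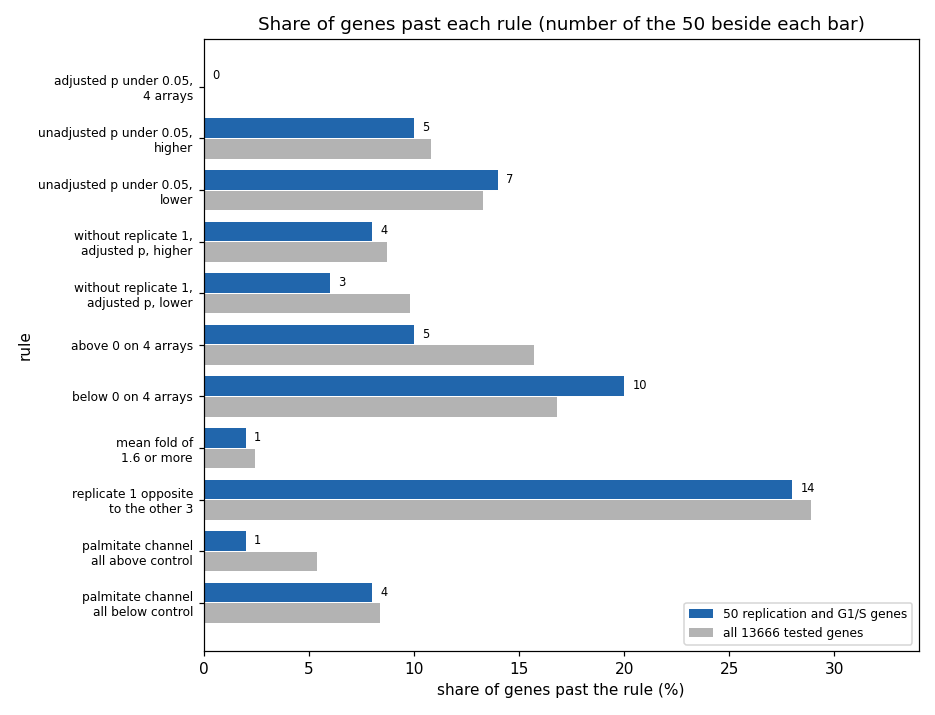
Percent of the 50 replication and G1/S genes (blue bars, with the number of genes beside each bar) and of all 13666 tested genes (grey bars) past each of 11 rules. Blue and grey bars are of like length under most rules, for instance 14% and 13.3% lower at an unadjusted p under 0.05.

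Without replicate 1, limma passed 4 of the 50 genes as higher at an adjusted p of 0.05, Cdk6, Mcm4, Rpa1 and Gins4, beside 8.74% of all tested genes, and 3 as lower, Pcna, Rfc2 and Pola1, beside 9.83%. Leaving out replicate 2, 3 or 4 gave 0 each time. At an unadjusted p under 0.05 the counts were 11 higher and 12 lower without replicate 1, beside 17.8% and 18.1% of all tested genes. They were 2 and 3 without replicate 2 (4.77% and 6.7% of all), 2 and 5 without replicate 3 (5.95% and 9.86%), and 4 and 3 without replicate 4 (7.12% and 8.43%). The 7 calls, like those over all genes, rested on loess as well. With replicate 1 left out and arrays centred on the median or shifted to the 75th percentile limma passed 0 of the 50. In these settings it passed 0% and 0.0146% of all tested genes. In 14 of the 50 genes replicates 2 to 4 shared a sign that replicate 1 opposed, beside 28.9% of all tested genes. Over the 50 genes, which share arrays and normalization, replicate 1 had correlations of 0.25, 0.057 and -0.15 with replicates 2, 3 and 4, against 0.72, 0.68 and 0.47 among those.

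**Figure D2:**
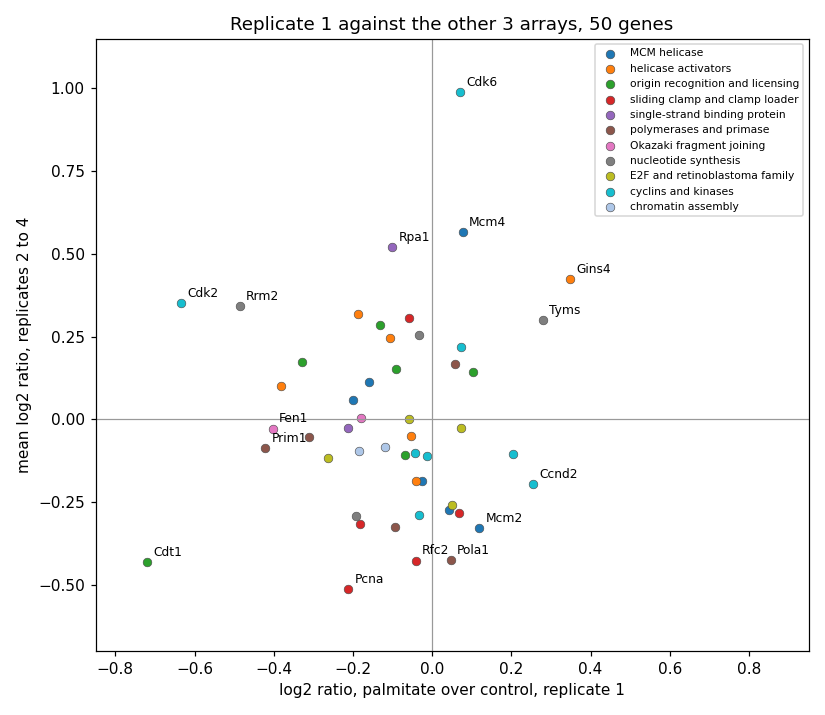
Log2 ratio of palmitate over control in replicate 1 (x axis) against the mean log2 ratio of replicates 2 to 4 (y axis) for each of the 50 genes, coloured by role; names mark the 7 genes past the adjusted p without replicate 1 and 8 others far from 0. Cdk2, Rrm2 and Rpa1 lie in the upper left, with opposite signs, and Pcna and Cdt1 in the lower left, with the same sign.

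**Figure D3:**
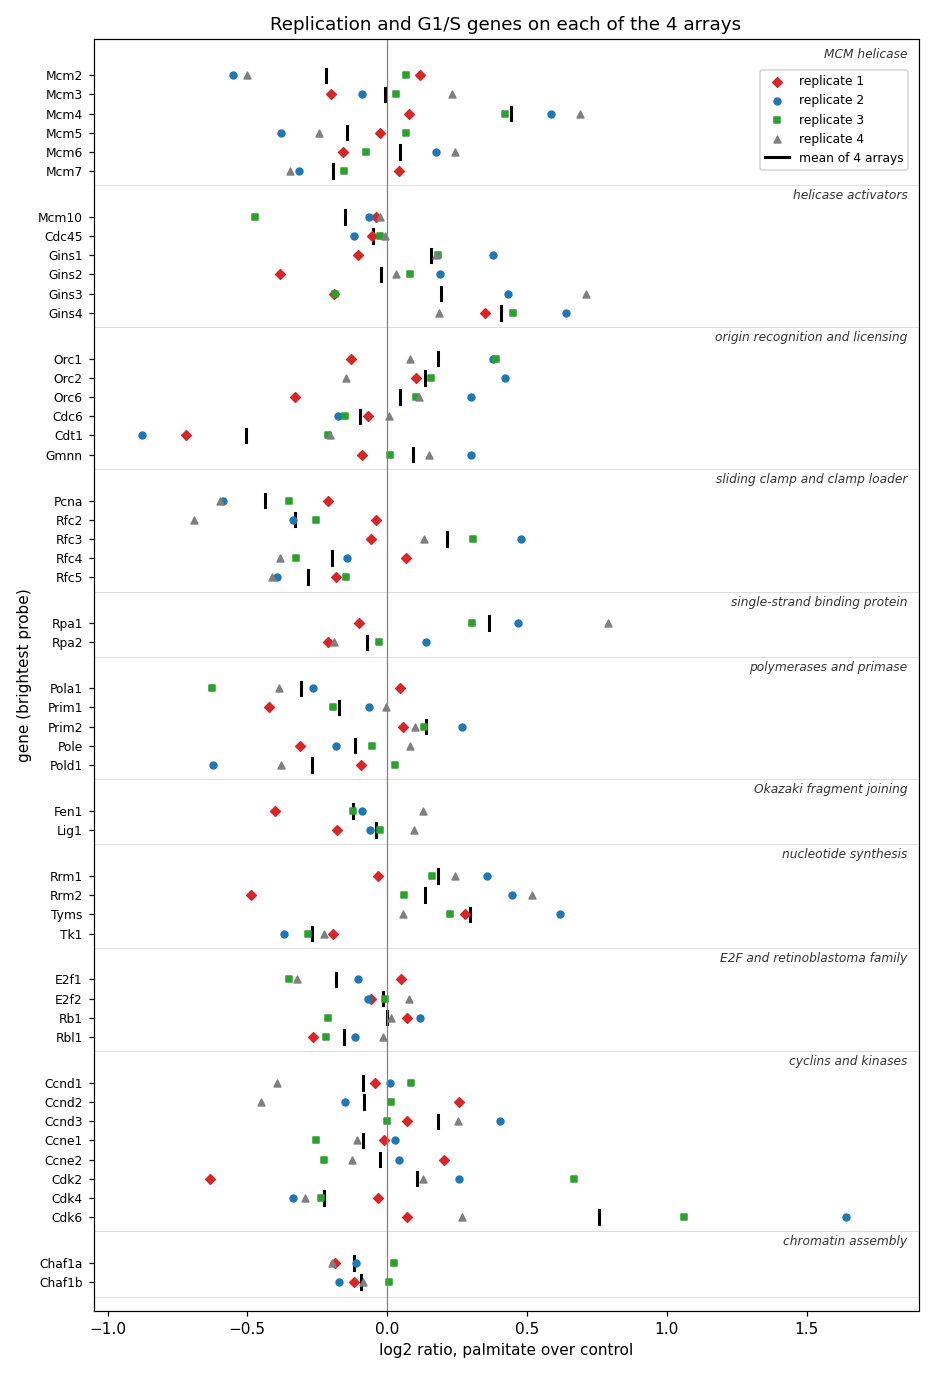
Log2 ratio of palmitate over control of all 50 genes on each array (coloured marks, 1 shape per replicate) with the mean of the 4 arrays (black bar), grouped by role. The marks of most genes lie on both sides of 0, while those of Pcna, Tk1 and Rfc5 all lie below and those of Mcm4 and Gins4 all above.

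The 6 subunits of the MCM ring had ratios of both signs, 2 above 0 and 4 below with loess and 3 on each side with a constant shift. Mcm4 had the highest, with log2 ratios of 0.077, 0.58, 0.42 and 0.69 in replicates 1 to 4 and a mean of 0.44 ± 0.27 (SD, n = 4, adjusted p = 0.131 in limma). All 4 arrays were above 0, replicate 1 least, and without it Mcm4 was higher with a mean of 0.56 ± 0.14 (SD, n = 3, adjusted p = 0.0123). Mcm2, a subunit of the same ring, had 0.12, -0.55, 0.066 and -0.50, with a mean of -0.22 ± 0.36 (SD, n = 4, adjusted p = 0.407). Replicates 2 and 4 were low and replicates 1 and 3 slightly above 0, so this ratio lies within the spread between arrays. The means of Mcm3, Mcm5, Mcm6 and Mcm7 lay between -0.19 and 0.045, and none of these 4 was at an unadjusted p under 0.05. Mcm5 and Mcm6, with the shared promoter run, had means of -0.15 ± 0.20 (SD, n = 4) and 0.045 ± 0.19 (SD, n = 4).

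Among the factors that switch the helicase on, Gins4, a GINS subunit, stood highest. Its log2 ratios were 0.35, 0.64, 0.45 and 0.18, with a mean of 0.41 ± 0.19 (SD, n = 4, adjusted p = 0.12). The 4 arrays were all above 0, and the single-channel log2 signals of 11.69, 12.18, 11.91 and 11.79 with palmitate did not overlap with the 11.35, 11.54, 11.46 and 11.61 of the controls. Without replicate 1 the adjusted p was 0.0423. The other GINS subunits, Gins1, Gins2 and Gins3, had means of 0.16, -0.021 and 0.19, and each had arrays on both sides of 0. Cdc45, which joins the helicase with GINS, had -0.054, -0.12, -0.024 and -0.0070, with a mean of -0.050 ± 0.048 (SD, n = 4, adjusted p = 0.717). All of its ratios were close to 0 with loess, and the 95% interval of the mean ran from -0.23 to 0.13. Its probe was the dimmest of the set, with a mean log2 signal of 7.88. Relative to the median of all probes, the mean of Cdc45 was -0.085 without background correction and -0.14 with a constant shift. Mcm10, which helps to activate the helicase, had -0.041, -0.064, -0.47 and -0.024, so that replicate 3 alone was far below 0.

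Of the origin recognition and licensing genes, Cdt1 had the lowest mean of all 50. Cdt1 loads the MCM ring before S phase and had log2 ratios of -0.72, -0.88, -0.21 and -0.21, with a mean of -0.50 ± 0.35 (SD, n = 4), a fold of 1.42 (adjusted p = 0.137). Replicates 1 and 2 were far lower than replicates 3 and 4, and the palmitate signals of 13.65, 13.51, 14.08 and 14.21 were all below the control signals of 14.37, 14.38, 14.29 and 14.41. It did not pass without replicate 1 either (adjusted p = 0.0865). Gmnn, or geminin, which binds Cdt1 and blocks a further round of licensing, had -0.092, 0.30, 0.011 and 0.15 and a mean of 0.092 ± 0.17 (SD, n = 4, adjusted p = 0.589), with replicate 1 below 0 and the others above. Cdc6, the other loading factor, has 2 tested probes whose means differ in sign: the brighter had -0.069, -0.18, -0.15 and 0.0072, with a mean of -0.098 ± 0.084 (SD, n = 4, adjusted p = 0.492), and the dimmer a mean of 0.018 ± 0.28 (SD, n = 4). The brighter probe too stood above the median of all probes with a constant shift. Orc1, Orc2 and Orc6, subunits of the origin recognition complex, had means of 0.18, 0.13 and 0.047, with arrays on both sides of 0.

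The sliding clamp and its loader held 3 of the 7 genes that were lower at an unadjusted p under 0.05, Pcna, Rfc5 and Rfc2. Of all tested genes 13.3% were lower at that p. In the whole set 0 genes were lower at that p with median centring and 1 with the shift to the 75th percentile. The shares of all tested genes were then 0.139% and 4.94%. By sign alone, 4 of the 5 genes of the clamp and loader were below 0, Rfc3 being above, under loess and under a constant shift alike. Pcna encodes the ring that holds polymerases on the DNA and is used as a marker of proliferating cells. Its log2 ratios were -0.21, -0.59, -0.35 and -0.60, with a mean of -0.44 ± 0.19 (SD, n = 4), a fold of 1.35, and a 95% interval from -0.67 to -0.20 (adjusted p = 0.119). Each of the 4 arrays was below 0, replicates 2 and 4 most, and the palmitate signals of 14.96, 14.56, 14.84 and 14.66 lay below all control signals of 15.17, 15.14, 15.19 and 15.26. Without replicate 1 Pcna was lower, with a mean of -0.51 ± 0.14 (SD, n = 3, adjusted p = 0.0163).

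Rfc2, a small subunit of the clamp loader, had -0.041, -0.34, -0.25 and -0.69, with a mean of -0.33 ± 0.27 (SD, n = 4, adjusted p = 0.187). Replicate 4 was lowest and replicate 1 close to 0, and the signals of the 2 groups overlapped. Without replicate 1 it was lower (adjusted p = 0.0422). Rfc5, another small subunit, had -0.18, -0.39, -0.15 and -0.41 and a mean of -0.28 ± 0.14 (SD, n = 4, adjusted p = 0.152), below 0 on each array. Rfc4 had a mean of -0.20 ± 0.20 (SD, n = 4) for its brighter probe and -0.24 for the other. Rfc3 went the other way in 3 arrays, with -0.058, 0.48, 0.31 and 0.13 and a mean of 0.21 ± 0.23 (SD, n = 4, adjusted p = 0.296). The large subunit Rfc1, which was outside the set of 50, had -0.39, -0.36, -0.16 and -0.38, a mean of -0.32 ± 0.11 (SD, n = 4, adjusted p = 0.129).

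**Figure D4:**
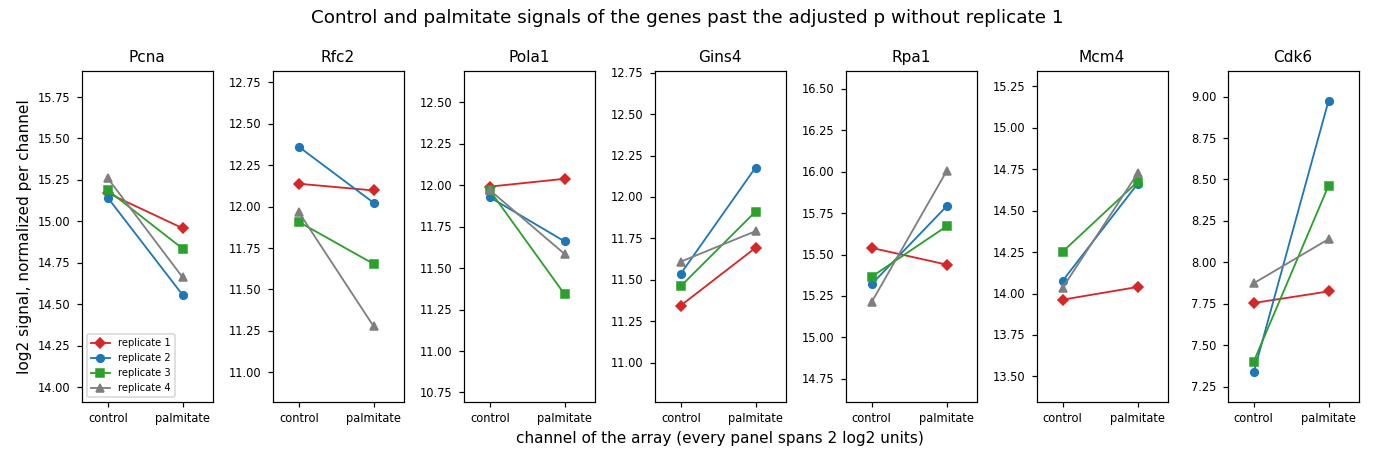
Log2 signals of the control and palmitate channels, normalized per channel, for the 7 genes past the adjusted p without replicate 1; each line joins the 2 cultures of 1 array, and every panel spans 2 log2 units. The line of replicate 1 is flatter than the others in Rfc2, Mcm4 and Cdk6, and runs against them in Pola1 and Rpa1.

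Rpa1 and Rpa2, subunits of the protein that coats single-stranded DNA, had unlike ratios. Rpa1 had -0.10, 0.47, 0.30 and 0.79, with a mean of 0.37 ± 0.37 (SD, n = 4, adjusted p = 0.219). Replicate 1 was below 0 and the others above, and without replicate 1 Rpa1 was higher, with a mean of 0.52 ± 0.25 (SD, n = 3, adjusted p = 0.0258). Rpa2 had a mean of -0.073 ± 0.16 (SD, n = 4), with only replicate 2 above 0, and stood above the median of all probes with a constant shift. The third subunit, Rpa3, outside the set, had a mean of -0.19 ± 0.15 (SD, n = 4).

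Polymerases and primase had 4 of 5 means below 0, or 3 of 5 with a constant shift. Pola1, the catalytic subunit of polymerase alpha that extends primers, had 0.047, -0.27, -0.63 and -0.39, with a mean of -0.31 ± 0.28 (SD, n = 4, adjusted p = 0.211). Replicates 2 to 4 were below 0 and replicate 1 slightly above, and without replicate 1 Pola1 was lower, at -0.43 ± 0.18 (SD, n = 3, adjusted p = 0.0333). Pold1, the catalytic subunit of polymerase delta, had -0.093, -0.62, 0.027 and -0.38 and a mean of -0.27 ± 0.29 (SD, n = 4, adjusted p = 0.268), low in replicates 2 and 4. Pole, that of polymerase epsilon, had a mean of -0.12 ± 0.17 (SD, n = 4) in its tested probe; its other probe was well above background on 0 control and 1 palmitate arrays and was not tested. Of the primase subunits, Prim1 had a mean of -0.17 ± 0.18 (SD, n = 4), below 0 on 4 arrays, and Prim2 a mean of 0.14 ± 0.090 (SD, n = 4), above 0 on 4 arrays. Neither primase subunit was at an unadjusted p under 0.05.

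The genes that finish lagging-strand fragments showed small ratios. Fen1, the nuclease that removes primer flaps, had -0.40, -0.089, -0.12 and 0.13, with a mean of -0.12 ± 0.22 (SD, n = 4, adjusted p = 0.523). Replicate 1 was lowest and replicate 4 above 0. Lig1, the ligase that seals the nicks, had a mean of -0.042 ± 0.11 (SD, n = 4). Both stood above the median of all probes with a constant shift. The chromatin assembly subunits Chaf1a and Chaf1b, which deposit histones behind the fork, had -0.18, -0.11, 0.025 and -0.20 (mean -0.12 ± 0.10 (SD, n = 4), adjusted p = 0.425) and a mean of -0.092 ± 0.074 (SD, n = 4). Only replicate 3 was above 0 in either, and with a constant shift both stood above the median of all probes.

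Nucleotide synthesis genes split. Tk1, thymidine kinase, had the smallest spread among the genes at an unadjusted p under 0.05, with -0.19, -0.37, -0.28 and -0.23 and a mean of -0.27 ± 0.077 (SD, n = 4, adjusted p = 0.141). All 4 arrays were below 0, and the palmitate signals of 14.69, 14.42, 14.57 and 14.55 were all below the control signals of 14.88, 14.78, 14.85 and 14.78. With a constant shift the mean of Tk1 was -0.083. Tyms, which makes thymidylate by the other route, had 0.28, 0.62, 0.22 and 0.056, with a mean of 0.29 ± 0.24 (SD, n = 4, adjusted p = 0.195), above 0 on all 4 arrays though barely so in replicate 4. Rrm2, the small subunit of ribonucleotide reductase that limits its activity to S phase, had -0.49, 0.45, 0.061 and 0.52 and a mean of 0.13 ± 0.46 (SD, n = 4, adjusted p = 0.674). Here replicate 1 was far below 0 and replicates 2 and 4 far above, so the mean lies well inside the spread. Rrm1, the large subunit, had a mean of 0.18 ± 0.16 (SD, n = 4).

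The E2F and retinoblastoma genes had 4 of 4 means below 0 with loess, but 2 above and 2 below with a constant shift. E2f1, an activating E2F, had 0.049, -0.11, -0.35 and -0.32, with a mean of -0.18 ± 0.19 (SD, n = 4, adjusted p = 0.320), lowest in replicates 3 and 4. Rb1, the retinoblastoma protein, had 0.072, 0.12, -0.21 and 0.015, with a mean of -0.0017 ± 0.15 (SD, n = 4) and an interval from -0.22 to 0.21 (adjusted p = 0.992). Its probe was printed as 10 spots per array, and the ratios straddled 0. E2f2 had a mean of -0.014 ± 0.067 (SD, n = 4). Rbl1, or p107, had a mean of -0.15 ± 0.11 (SD, n = 4) in its brighter probe, below 0 on 4 arrays. The other probe of Rbl1 had -0.61, 0.070, -0.34 and 0.11, with a mean of -0.19 ± 0.35 (SD, n = 4).

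Of the cyclins and kinases, Cdk6 had the largest mean of the whole set and the largest spread. This partner of cyclin D had 0.070, 1.64, 1.06 and 0.27, with a mean of 0.76 ± 0.73 (SD, n = 4), a fold of 1.69 and an interval from 0.13 to 1.39 (adjusted p = 0.178). Replicates 2 and 3 carried the mean while replicates 1 and 4 were nearer 0, and the palmitate signals of 7.82, 8.98, 8.46 and 8.14 overlapped the control signals of 7.75, 7.34, 7.40 and 7.87. Without replicate 1 it was higher, at 0.99 ± 0.69 (SD, n = 3, adjusted p = 0.0304). The mean of Cdk6 depended on the background: it was 1.06 without background correction and 1.76 in the processed signals and the authors' value table, relative to the median of all probes. Its relative Cdk4 had -0.034, -0.34, -0.24 and -0.29 in its brightest probe, with a mean of -0.23 ± 0.13 (SD, n = 4, adjusted p = 0.204), below 0 on 4 arrays but close to 0 in replicate 1. With a constant shift it stood at the median of all probes, at -0.0044. The 3 tested probes of Cdk4 had means from -0.41 to -0.19. Cdk2, the partner of cyclin E, had -0.63, 0.26, 0.67 and 0.13 and a mean of 0.11 ± 0.54 (SD, n = 4, adjusted p = 0.784), with replicate 1 and replicate 3 at opposite ends.

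Ccnd1, cyclin D1, had -0.043, 0.0087, 0.084 and -0.39, with a mean of -0.086 ± 0.21 (SD, n = 4) and an interval from -0.33 to 0.16 (adjusted p = 0.650). Replicate 4 alone was clearly below 0. Ccne1, cyclin E1, had -0.013, 0.028, -0.25 and -0.11 and a mean of -0.087 ± 0.13 (SD, n = 4, adjusted p = 0.570), lowest in replicate 3, and its other probe had a mean of -0.14. Ccnd2, Ccnd3 and Ccne2 had means of -0.083, 0.18 and -0.027. None of the 5 cyclins was at an unadjusted p under 0.05, and Ccnd1, Ccnd2, Ccne1 and Ccne2 stood above the median of all probes with a constant shift.

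**Figure D5:**
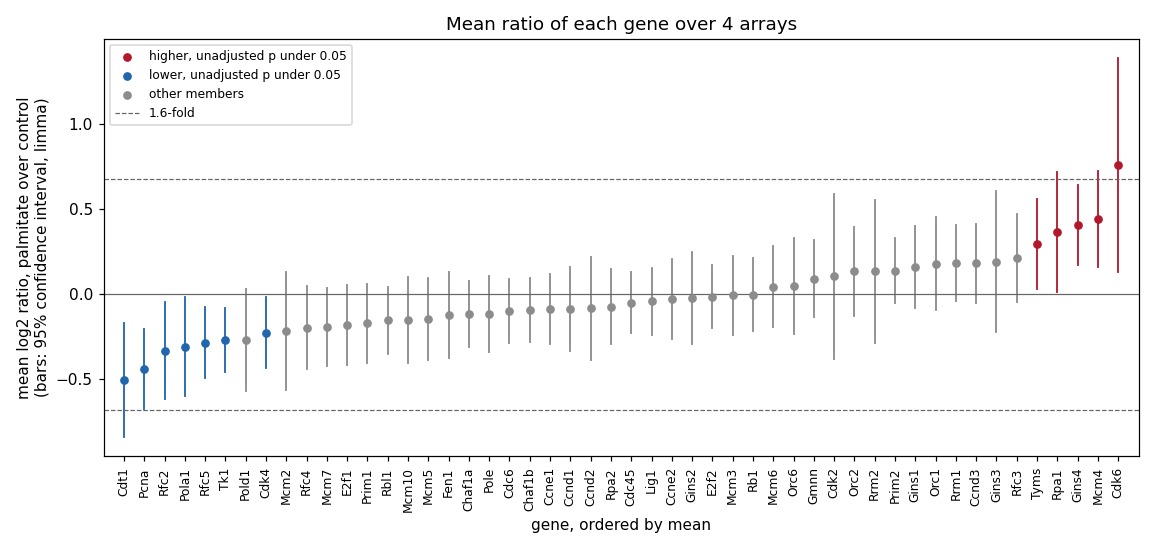
Mean log2 ratio of the 50 genes, palmitate over control, on 4 arrays, in order of the mean (points), with 95% confidence intervals from limma (bars) and dashed lines at 1.6-fold; red and blue mark genes higher or lower at an unadjusted p under 0.05. The intervals of 46 genes lie between the dashed lines, and those of Cdt1, Rpa1, Mcm4 and Cdk6 cross one of them.

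Genes with and without E2F letters had like medians on the loess scale. The 21 genes with at least 1 of the 3 strings had a median log2 ratio of -0.092, with 6 above 0 and 15 below. The 17 genes with a window and none of the strings had a median of -0.087, with 7 above and 10 below. At an unadjusted p under 0.05 the first group held 0 higher and 2 lower genes, Cdt1 and Pola1, and the second 3 higher and 4 lower. Of all tested genes 10.8% were higher and 13.3% lower at that p. The 12 genes with no matched window had a median of -0.011, with 5 above and 7 below, and held the other 3 genes at that p, Mcm4 and Gins4 higher and Rfc2 lower. These counts are a description and were not tested.

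In the rest of the pathway too, no gene passed the adjusted p over the 4 arrays. Among 45 other replication factors, all tested, an unadjusted p under 0.05 was reached by 3 with higher and 6 with lower ratios. This made 20% of the list, against a share of 24.1% over all tested genes (10.8% higher and 13.3% lower). The median log2 ratio of the list was 0.0031, and 0 passed the adjusted p in limma over the 4 arrays. Of 26 other G1/S regulators 25 were tested, with 0 higher and 2 lower, E2f4 and E2f6, which made 8%, a smaller share than over all genes. The median of the 25 was -0.030, and again 0 were past the adjusted p. Without replicate 1, 5 and 1 genes of these lists passed as higher and 2 and 1 as lower. The shares over all tested genes were then 8.74% and 9.83%.

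The highest of these genes were Top1, Topbp1 and Dbf4. Top1, the topoisomerase that relieves twist ahead of the fork, had 0.22, 0.75, 0.16 and 0.75, with a mean of 0.47 ± 0.32 (SD, n = 4, adjusted p = 0.139), above 0 on 4 arrays. Topbp1, which helps Cdc45 to load, had -0.30, 0.43, 0.70 and 0.60 and a mean of 0.36 ± 0.45 (SD, n = 4). Dbf4, the activator of the Cdc7 kinase, had -0.27, 0.67, 0.58 and 0.42 and a mean of 0.35 ± 0.43 (SD, n = 4). In both genes replicate 1 was below 0 and the others above. The lowest were Recql4, Rnaseh2c and Dctpp1. Recql4, a helicase of origin firing, had -0.35, -0.83, -0.038 and -0.40 (mean -0.40 ± 0.33 (SD, n = 4), adjusted p = 0.169). Rnaseh2c, a subunit of the ribonuclease that removes RNA from DNA, had -0.27, -0.45, -0.60 and -0.23 and a mean of -0.39 ± 0.17 (SD, n = 4). Dctpp1, which clears dCTP, had 0.029, -0.44, -0.63 and -0.44 and a mean of -0.37 ± 0.28 (SD, n = 4). Recql4 and Rnaseh2c were below 0 on each array, Dctpp1 on 3 of 4. Without replicate 1, Top1, Topbp1 and Dbf4 were higher (adjusted p = 0.0352, 0.0117 and 0.0125) and Rnaseh2c and Dctpp1 lower (0.0333 and 0.0155), while Recql4 did not pass (0.0948).

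Markers of muscle differentiation, which opposes the cell cycle in this line, were read beside these genes. Of 10 such markers 8 were tested, 6 with means above 0 and 2 below. Before adjustment, 2 of the 8 had a limma p below 0.05, both with higher ratios. They were Myog at 0.30 ± 0.14 (SD, n = 4) and Myh3 at 0.32 ± 0.18 (SD, n = 4). The shares over all tested genes were 10.8% higher and 13.3% lower. These marker values are given on the loess scale alone. The median of the 8 markers was 0.17, 0.16, 0.14 and 0.073 in replicates 1 to 4, above 0 on each array. Of these markers 0 passed the adjusted p with or without replicate 1. The 7 myoblast markers leaned the same way, 6 with means above 0 and 1 below. Their medians were 0.074, 0.10, 0.15 and 0.049 in replicates 1 to 4, also above 0 on each array. Among them Myod1 was higher at an unadjusted p under 0.05 in limma. Of the 2 tested endothelial markers, Kdr was at 0.98 in replicate 1 and lower without that array (adjusted p = 0.00282 in limma). The part of such cells or states in the ratios of the replication genes was not tested.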

How the data were processed

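RNA of 4 control and 4 palmitate-treated C2C12 cultures was measured on 4 two-colour Agilent arrays. The authors deposited median spot and background signals, which are raw intensity values, and processed signals, which are intensity values already subtracted for background and normalized for dye, with Agilent Feature Extraction 10.7.3.1 named in the submitters' processing notes. Their deposited value table holds log2 ratios of palmitate over control, equal to those of the processed signals within 3.02e-06.

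In R 4.3.3 with limma 3.58.1 and statmod 1.5.0, median signals were corrected by normexp (offset 50) and normalized by loess within arrays. Control spots and spots flagged as outliers were left out before spots of 1 probe were averaged. Probes entered the test when 1 of the channels, the same on each array, was well above background on all 4 and a ratio was measured on each, which left 24055 of 39429. The mean log2 ratio was tested against 0 with limma and adjusted over all tested probes by Benjamini-Hochberg; each array pairs 1 control with 1 palmitate culture. Probes were named through RefSeq accessions (26055 probes), and the brightest tested probe stands for a gene. Single-channel signals were taken from these ratios after quantile normalization of the average signal between arrays.

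The 50 genes, their roles and the other lists were chosen with earlier results of these data known. Values on every array are given for the gene with the lowest p and that with the largest mean of each role, the best known gene of each step, genes whose probes differ in sign, genes past an adjusted p of 0.05 with or without replicate 1, and the 3 highest and 3 lowest of the other pathway lists. Any other gene named, and the promoters shown, were picked with their values in view. The fit was tested on simulated data in which no array stood apart, so that test does not cover an array like replicate 1. The changes put into those data were also larger than any mean of the 50 genes. Alternatives concerned background, dye normalization, filters, variance model, pairing, probe choice, the source of values and single replicates. Keeping spots flagged as outliers, and leaving out replicate 1 together with another choice, were added after the data were seen. The number of arrays limits the precision.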

Additional observations from a re-analysis of the deposited data

Results flagged for a closer look

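Mcm10, which helps to activate the replicative helicase, had 1 array far from the others. Replicate 3 was at -0.47, while replicates 1, 2 and 4 lay between -0.064 and -0.024, so that the gap to the nearest array took up 0.912 of the whole range, above Dixon's 95% limit for 4 values. It was 1 of the 50 genes checked in this way, and chance flags about 1 in 20. Of all 13666 tested genes 5.36% stood out by the same measure.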

How the results depend on the processing

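The median of all tested probes was 0.0089 with loess, 0.18 with median centring, -0.11 with the shift to the 75th percentile and 0.99 without dye normalization, and in the last 3 settings values are given relative to it. In all 3 settings without loess the median of the 50 genes was 0.063. At an unadjusted p under 0.05 the set gave 3 higher and 0 lower genes with median centring (2.87% and 0.139% of all tested genes). The 75th percentile gave 4 and 1 (4.9% and 4.94% of all). Without dye normalization the counts were 49 and 0 (88.3% and 0.102% of all). Array weights gave 8 and 12 (15.6% and 17.8% of all). Processed signals or the authors' value table gave 4 and 3 (13.6% and 12.4% of all). The count past the adjusted p, 0 with loess, was 7 with array weights and 49 without dye normalization, beside 15.2% and 85.9% of all tested genes. Without replicate 1 the 7 calls became 0 with median centring, the 75th percentile or the methods' t-test, which called 0%, 0.0146% and 0.22% of all tested genes. They became 14 without background correction, 4 without the filter on dim probes and 50 without dye normalization, which called 31.4%, 13.4% and 96.1%. The other replication and G1/S genes at an unadjusted p under 0.05 numbered 11 with loess, beside 24.1% of all tested genes, and 1 with median centring or the 75th percentile. They numbered 7 with processed signals, the value table or a trended and robust variance, which had 8.87% of all genes higher and 11.3% lower. Array weights gave 22 and no dye normalization 68, of which 9 and 68 passed the adjusted p, beside 15.2% and 85.9% of all. The shares of all genes at the unadjusted p in the other settings are those given above. Without dye normalization, as in the other 2 settings without loess, the signs of Cdc6 (0.0081), Fen1 (0.077), Rb1 (0.11), Ccnd1 (0.092), Ccne1 (0.048) and Chaf1a (0.0054) turned, and the cause was not tested.

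Leaving out 1 replicate at a time gave a set median between -0.063 and -0.039, 2 to 11 higher and 3 to 12 lower genes at an unadjusted p under 0.05, and 0 to 7 past the adjusted p. The other lists gave 3 to 25 and 0 to 9. Of all tested genes 4.77% to 17.8% were higher and 6.7% to 18.1% lower at the unadjusted p in these fits, and 0% to 18.6% passed the adjusted p. The highest counts came without replicate 1 each time. With the pairing of cultures by array left out (no replicate block), 5 genes were higher and 6 lower at the unadjusted p, beside 9.47% and 13.1% of all tested genes. At the adjusted p 0 passed, beside 0.0732% of all. With replicate 1 left out too, 6 in place of 7 passed it, beside 16% of all. Of 580 values of the 23 named members and 6 other genes over 20 settings, 22 had the opposite sign of the main value. All 50 genes were well above background in all 8 channels, and a gene that did not pass is not shown to be unaffected.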
